A study of Mus musculus with 8 samples.

Results

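The genes described here encode the heat shock proteins of the cytosol and mitochondria, the J proteins that work with them and the heat shock factors that switch on their transcription. They were chosen by name: array probes whose gene name begins with Hsp followed by a letter from a to h or a digit, or with Dnaja, Dnajb or Dnajc, together with Tcp1, Cct2 to Cct8, Hsf1, Hsf2 and Hsf4. The chaperones of the endoplasmic reticulum Hspa5, Hsp90b1, Dnajb9, Dnajb11 and Dnajc3 were left out, as were Hspb7 and the matrix proteoglycan Hspg2. The rule took 131 of 41174 probes, for 69 of the 27670 genes named on the array. Of these, 63 genes had a probe bright enough to be tested. The name rule also admits a few genes that its title does not describe. Among them, Dnajc1, Dnajc10 and Dnajb12 are proteins of the endoplasmic reticulum. Hspbap1 only binds a heat shock protein, and a probe filed under the name Hspc171 belongs to Tmem208, which is no heat shock protein. All of these genes are counted among the 63.

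The 4 Arid3b-null and 4 wild-type samples were total RNA of whole mouse embryos, taken at embryonic day 9.0, each pooled from 3 to 4 embryos and hybridised to a one-colour Agilent array. Arid3b is a chromatin-binding protein with an AT-rich interaction domain, and the comparison concerns the transcripts of embryos that lack it. The labels give neither the allele nor the strain, and do not say whether pools came from separate litters, so p-values measure only the spread between these pools. With 4 arrays per genotype, precision is limited throughout. In RNA from a whole embryo, fewer cells of a type and less RNA per cell cannot be told apart.

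Heat shock proteins are chaperones: they bind unfolded or partly folded proteins and help them fold, assemble, cross membranes or be degraded. Hsp70 proteins bind and release clients in a cycle of ATP hydrolysis that J proteins start and nucleotide exchange factors such as Hsp110 end, while Hsp90 acts later, on nearly folded clients such as kinases and nuclear receptors. Most are made in every cell, and a few, above all the stress-inducible Hsp70 gene Hspa1a, are kept low until the heat shock factor Hsf1 activates them through heat shock elements, inverted repeats of nGAAn in their promoters.

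Arid3b was measured at 1.89, 1.83, 1.85 and 2.48 in null pools 1 to 4, against 3.47, 3.29, 3.39 and 3.31 in wild-type pools 1 to 4, on the log2 scale relative to each array's 75th percentile. All null pools lay below all wild-type pools, at 39.2% of the wild-type level (difference -1.35 ± 0.15 SE, limma adjusted p = 0.00577). The array carries 3 Arid3b probes, and these values are of the brightest one kept. No source used here says which part of the gene the null allele alters, or whether this probe lies in it. Per array, 60.0% to 64.1% of probes stood well above background. Pools 1 and 2 of each genotype shared slide 1 and pools 3 and 4 shared slide 2. On both slides wild-type RNA took positions 1 and 2 and null RNA positions 3 and 4, so position and genotype cannot be told apart. In units of the array's 75th percentile, summed heart muscle markers were 268 to 297 in null and 227 to 243 in wild-type pools. Summed neural tube markers were 13.0 to 16.5 in null pools and 17.8 to 19.6 in wild-type pools. The brightest genes weigh most in such sums, Myh7 and Myl7 in heart and Nes in neural tube. Of 5 neural tube markers, limma called 1 lower, Olig2 (20%, against 4.2% of all genes tested, 1.35% lower). With pool number as a block it called 3 lower, Olig2, Sox1 and Nes (60%, against 13.7% of all genes, 5.92% lower). In that fit 1 of 5 endothelial markers was called, Tie1, higher (20%, against 7.78% of all genes called higher). The sums for primitive erythroid, endothelial, somite and yolk sac markers overlapped between the genotypes. Those of 4 Y-linked genes were 1.63, 2.60, 1.59 and 3.08 in null pools 1 to 4, against 0.0140, 2.52, 0.787 and 0.0195 in wild-type pools 1 to 4, so wild-type pools 1 and 4 had almost no Y-linked signal. With that level as a covariate, limma called 0 of the 63 heat shock genes (11 at an unadjusted p under 0.05). Of all 17099 genes tested it called 304 (3530 at an unadjusted p under 0.05). Of the markers of adult liver, Cyp2e1 and Cyp3a11 were not above background on enough arrays to be kept. Alb was above background in 1 null and 3 wild-type pools and differed by -1.63 (adjusted p = 0.156).

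Most heat shock genes had nearly the same signal in both genotypes. At a limma adjusted p under 0.05 over all genes, 0 of the 63 genes rose and 2 fell, the Hsp110 gene Hsph1 and the mitochondrial J protein gene Dnajc11. That is 3.17% called, against 4.2% of all 17099 genes tested (2.85% higher and 1.35% lower). An unadjusted p under 0.05 was reached by 12 of the 63 genes, and by 3532 of all 17099 (20.7%). The null mean was the higher one for 24 genes and the lower one for 39. Over all genes tested it was the higher one for 8335 and the lower one for 8764. The median difference of the 63 genes was -0.07, against -0.01 over all genes tested. Values of the genotypes did not overlap for 11 genes, 2 higher and 9 lower in null embryos, or 17.5%, against 16.1% of all genes tested (8.08% higher and 8.06% lower). The 95% interval of the difference lay within 1.5-fold either way for 53 of the 63 genes (84.1%), against 66.6% of all genes tested. With the pool number as a block, 3 of the 63 genes were called higher (Dnajc18, Dnajc4 and Hspa2) and 5 lower (Cct6b, Dnaja1, Dnajc11, Hsph1 and Tmem208, the last no heat shock protein), which is 12.7%, against 13.7% of all genes in that fit (7.78% higher and 5.92% lower). With slide as a block, 6 heat shock genes were called (Dnajc18 and Hspa1a higher, Cct6b, Dnaja1, Dnajc11 and Hsph1 lower), against 8.01% of all genes (4.71% higher and 3.3% lower).

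**Figure D1:**
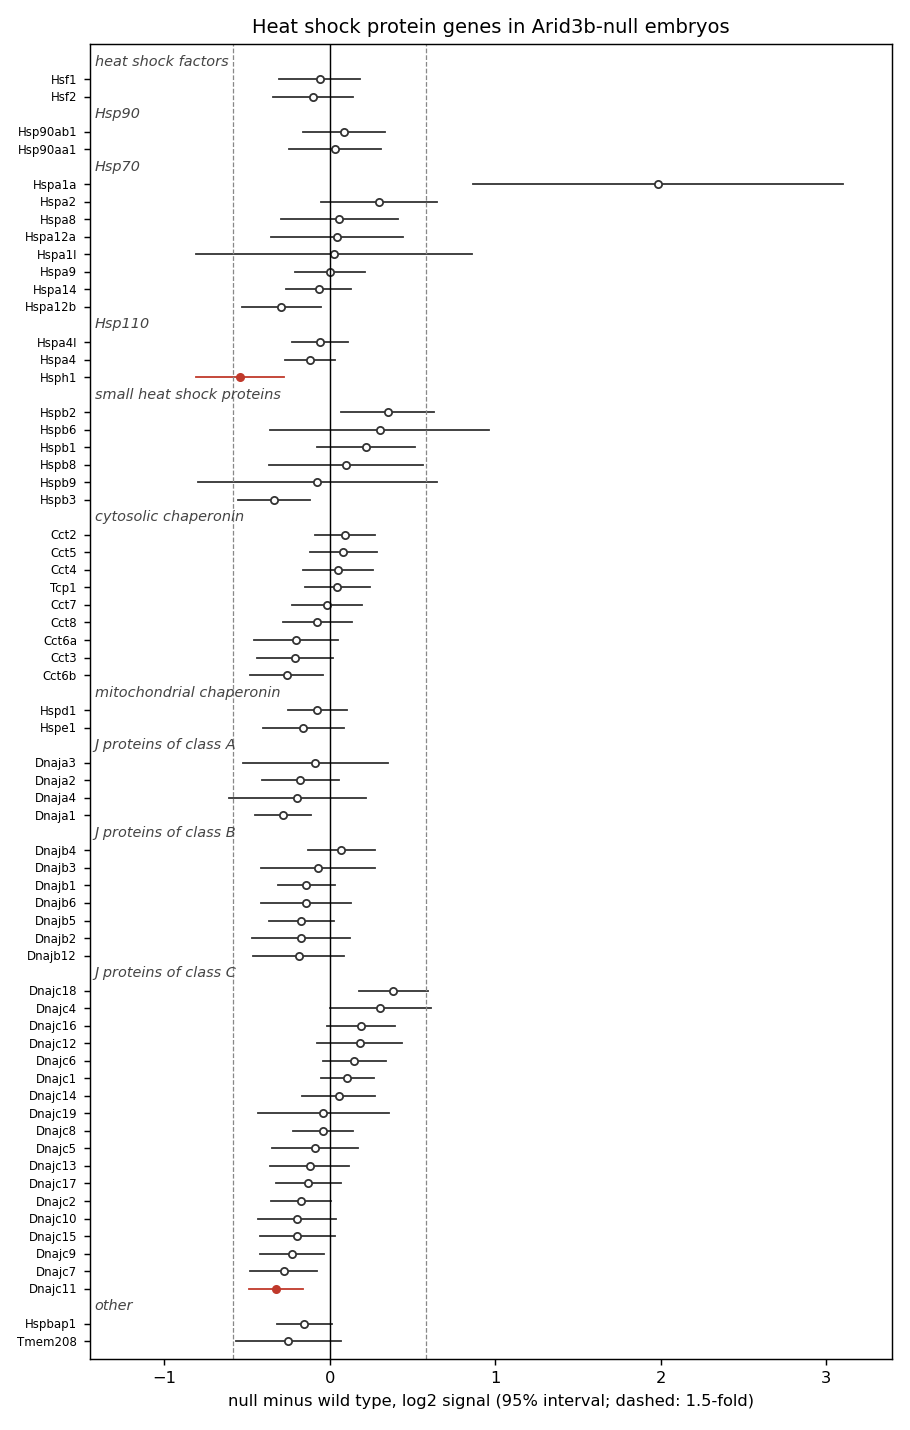
Difference between Arid3b-null and wild-type pools for the 63 heat shock genes tested, in log2 signal, grouped by role (points, null minus wild type; bars, 95% intervals of the limma fit; dashed lines, 1.5-fold either way; filled red, limma adjusted p under 0.05; n = 4 pools in each genotype). Only Hsph1 and Dnajc11 are filled, and the point for Hspa1a stands alone at 1.98.

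**Figure D2:**
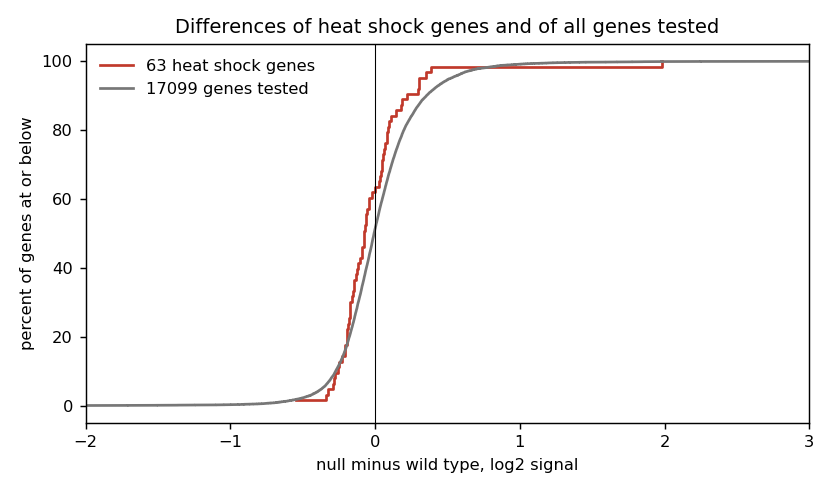
Cumulative percent of genes (y axis) at or below a given difference in log2 signal, null minus wild type (x axis), for the 63 heat shock genes and all 17099 genes tested. The curve of the heat shock genes climbs from -0.54 to 0.38, except for Hspa1a at 1.98. Its range cannot exceed that of all genes tested, of which these genes are a part. A few genes among all those tested lie beyond the drawn range.

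Of the transcription factors that drive the response, those tested, Hsf1 and Hsf2, showed little difference. Hsf1, the factor that answers heat and other protein stress, was at 4.15, 4.12, 4.42 and 4.53 in null pools, against 4.31, 4.45, 4.37 and 4.33 in wild-type pools. The null pools of slide 1 lay below the wild-type range, null pool 3 inside it and null pool 4 above it, and the difference was -0.06 (95% interval -0.31 to 0.18). Hsf2, a related factor active in embryos and germ cells, differed by -0.10 (95% interval -0.34 to 0.14). Hsf4, known from the lens, was well above background on 2 of 4 null arrays and 0 of 4 wild-type arrays, and was not tested. Its signal was -4.71, -4.83, -7.25 and -7.51 in null pools 1 to 4, against -8.30, -8.09, -7.86 and -7.98 in wild-type pools 1 to 4.

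Hspa1a, the stress-inducible cytosolic Hsp70, had the largest difference of the 63 heat shock genes tested and did not pass the test. Its signal was 0.39, 0.80, -1.44 and -0.39 in null pools 1 to 4, against -2.10, -2.66, -1.41 and -2.40 in wild-type pools 1 to 4. Null pools 1, 2 and 4 were above every wild-type pool, and null pool 3 was level with wild-type pool 3, the highest of its genotype. The difference was 1.98 ± 0.49 (SE), or 3.95-fold with a 95% interval of 1.82 to 8.57, and the limma adjusted p was 0.0632. On slide 1 the null mean was 2.98 above the wild-type mean, and on slide 2 it was 0.99 above. Its standard deviation within genotypes, 0.80, was the largest of the 63 genes and larger than that of 96.4% of all genes tested.

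The gene was called under 3 of the 25 alternatives: with slide as a block (adjusted p = 0.0490), with probes required to be above background on every array (0.0482) and without null pool 3 (difference 2.41, adjusted p = 0.0457). Over all alternatives its adjusted p ran from 0.0457 to 0.920. With pool number as a block it was 0.0732. In the 8 fits that each left out 1 pool, the difference stayed between 1.66 and 2.41.

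The array carries 4 probes for Hspa1a, on the minus strand of chromosome 17 (mm7). The probe described above, at 33066911 to 33066970, is probe D in the plot of the 4 probes. Probe C, at 33066941 to 33067000 and partly overlapping it, differed by 1.96 (adjusted p over probes 0.0629). Its lowest null value, -1.79, lay above its highest wild-type value, -1.90. Probe B, at 33067263 to 33067322, differed by 1.42. Probe A, nearest the 5′ end at 33068671 to 33068730, differed by 0.69 and was above background in only 2 null and 2 wild-type pools. All 4 differences were positive, and on each probe null pool 3 was the lowest null pool. The neighbouring gene Hspa1b, which encodes nearly the same protein, was not analysed here, and the Hspa1a probes may also bind its transcript.

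**Figure D3:**
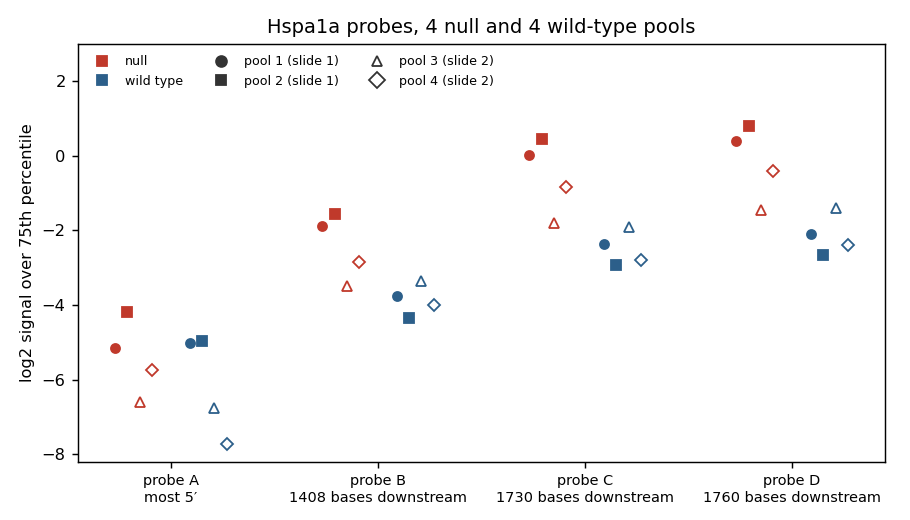
Signal of the 4 Hspa1a probes in every pool (y axis, log2 relative to the array's 75th percentile), ordered along the transcript from its 5′ side, with null pools in red left of wild-type pools in blue and one marker shape per pool number (filled, slide 1; open, slide 2). On probes B, C and D the slide 1 null pools stand highest and null pool 3 lies near wild-type pool 3.

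The promoters of 54 of the 69 genes were found in a RefSeq table (GRCm38.p6) of windows from 250 bases before to 50 bases after each annotated start. A heat shock element of 3 units, searched as GAANNTTCNNGAA on both strands, occurred in the windows of 4 of these genes, Hsph1, Hspd1, Hspe1 and Dnajb6. It was in 8.22% of member windows and 0.603% of all 32851 windows. The 2-unit element GAANNTTC, which is contained in the longer one, was in 20.5% of member windows and 7.86% of all windows. The other arrangement, TTCNNGAA, was in 13.7% of member windows and 8.52% of all windows. CCAAT was in 39.7% of member windows and 37.4% of all windows, and TATAAA in 4.11% of member windows and 13.6% of all windows. The stretch around the element is printed for Hspa1a, whose difference was the largest of the heat shock genes tested, and for Hsph1, which fell. The same is printed for Dnaja1 and Hspb1, whose values are given further on, and for the genes with a 3-unit element. The Hsp90 partner Chordc1, which fell, is printed as well. Capitals mark the matched bases, and each line runs 5′ to 3′ on the strand of its gene.
Hspa1a, chr17:34972233-34972280, minus strand: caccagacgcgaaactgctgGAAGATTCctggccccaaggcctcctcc
Dnaja1, chr4:40722324-40722371, plus strand: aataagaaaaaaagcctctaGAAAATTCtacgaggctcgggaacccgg
Hspb1, chr5:135887782-135887849, plus strand: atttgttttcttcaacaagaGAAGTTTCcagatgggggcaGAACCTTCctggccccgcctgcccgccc
Hsph1, chr5:149636287-149636308, minus strand: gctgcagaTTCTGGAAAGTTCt
Chordc1, chr9:18292260-18292288, plus strand: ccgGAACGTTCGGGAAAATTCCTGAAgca
Hspd1, chr1:55088039-55088096, minus strand: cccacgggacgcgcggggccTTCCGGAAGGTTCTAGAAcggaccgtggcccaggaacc
Hspe1, chr1:55088039-55088096, plus strand: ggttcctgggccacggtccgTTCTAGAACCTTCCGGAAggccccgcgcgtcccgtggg
Dnajb6, chr5:29735832-29735884, plus strand: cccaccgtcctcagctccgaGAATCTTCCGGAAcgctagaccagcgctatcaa

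In Hspa1a the match is a single 2-unit element, 104 to 97 bases before the start, and no 3-unit match lies in its window. Its window and that of Hspa1b share the same base at 296 of 300 positions. In Hsph1 the 3-unit match lies 37 to 49 bases after the annotated start. Chordc1 carries 3 overlapping 3-unit matches across its start. Hspd1 and Hspe1 lie head to head, and the same 58 bases between them are printed once on each strand, with 2 overlapping matches. A match describes letters and is not evidence that a factor binds. The 4 genes tested that hold a 3-unit element had a median difference of -0.15 with 1 fall, and the 46 with a window but without one had a median of -0.07 with 0 calls. All 4 null means were below the wild-type means, by between -0.07 in Hspd1 and -0.54 in Hsph1. Of all 17099 genes tested, 4.2% were called, 1.35% lower, and 8764 had the lower null mean. Whether the element bears on these differences was not tested. Dnajc11, the other gene that fell, had no window and is in neither group. The same holds for Dnajc18, Hspa8, Hsp90aa1, Hsp90ab1, Hspa9 and Hsf1, among others.

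The brightest probes of the constitutive Hsp70 and Hsp90 genes differed little. Hspa8, the Hsp70 made in every cell, was at 5.95, 6.10, 6.47 and 6.44 in null pools, against 5.93, 6.15, 6.20 and 6.44 in wild-type pools. In both genotypes the pools of slide 1 were below those of slide 2, and the difference was 0.06 (95% interval -0.29 to 0.41). Its other kept probe differed by -0.22, with null pools at 5.76 to 5.85 and wild-type pools at 5.94 to 6.14 (limma adjusted p over probes 0.146). The 2 probes thus disagree in direction. The array files place both on chromosome 5, while RefSeq puts the gene on chromosome 9, and which locus they measure was not tested, so that the Hspa8 values are uncertain. Hsp90ab1, the constitutive cytosolic Hsp90, differed by 0.09 (95% interval -0.16 to 0.33), and its second probe by -0.06. Hsp90aa1, the more inducible form, differed by 0.03 (95% interval -0.25 to 0.31).

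Among the other Hsp70 genes, Hspa2, best known from the testis, was at -2.09, -1.76, -2.18 and -2.36 in null pools, against -2.29, -2.15, -2.61 and -2.54 in wild-type pools. Each null pool was above the wild-type pool of its number, while the ranges overlapped. The difference was 0.30 ± 0.15 (SE), with an adjusted p of 0.324, or 0.0475 with pool number as a block. Hspa12b, an Hsp70-like gene of endothelium, differed by -0.29 with an adjusted p of 0.159, while the summed endothelial markers were 6.41 to 8.57 in null and 5.99 to 7.20 in wild-type pools. Without null pool 4 it was called (difference -0.38, adjusted p = 0.0499). Hspa14, which works at the ribosome, differed by -0.07, and Hspa12a by 0.04. Hspa1l lies next to Hspa1a on chromosome 17 (mm7, 33075774 to 33075833). It differed by 0.03, with a wide interval of -0.81 to 0.86.

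Hsph1 fell in null embryos. It encodes an Hsp110 protein that exchanges nucleotide on Hsp70 and helps dissolve aggregates, and its probe lies on chromosome 5 (mm7, 148550005 to 148550064, minus strand). The signal was 4.60, 4.35, 4.79 and 4.78 in null pools, against 5.14, 5.05, 5.31 and 5.20 in wild-type pools. All null pools were below all wild-type pools, and null pool 2 was the lowest. The mean was 4.63 ± 0.21 in null and 5.17 ± 0.11 in wild-type pools (SD, n = 4 each). The null level was 68.6% of the wild-type level (difference -0.54 ± 0.12 SE, limma adjusted p = 0.0431), with differences of -0.62 on slide 1 and -0.47 on slide 2.

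The call on Hsph1 sits near the threshold. It was lost in all 8 fits that left out 1 pool, with adjusted p of 0.0507 to 0.122 and differences of -0.60 to -0.45. Of 21 alternatives, 5 called it. Its adjusted p was lowest with slide as a block (0.0145) and highest with normexp background correction (0.940), and the difference stayed between -0.63 and -0.45. The other Hsp110 genes were not called. Hspa4 had null pools at 3.30 to 3.46 and wild-type pools at 3.47 to 3.52, with no overlap and a difference of -0.12 ± 0.07 (SE, adjusted p = 0.359). Hspa4l, abundant in testis, differed by -0.06.

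The cytosolic chaperonin, a ring of 8 kinds of subunit that folds actin and tubulin, had no called subunit. The 9 genes tested include Cct6b, a testis form of a subunit. On the brightest probe of each gene, the differences lay between -0.26 and 0.09 with a median of -0.02, and all 9 intervals were within 1.5-fold. Tcp1, the founding subunit, differed by 0.05, Cct2 by 0.09, Cct4 by 0.05 and Cct5 by 0.08. Cct7 differed by -0.02, Cct8 by -0.07, Cct3 by -0.21 and Cct6a by -0.21. Second probes of Tcp1, Cct3 and Cct4 differed in the opposite direction, by -0.04, 0.07 and -0.45. On that Cct4 probe null pools were at -1.93 to -1.46 and wild-type pools at -1.40 to -0.93, without overlap (limma adjusted p over probes 0.119). Cct6b was at 4.36, 4.30, 4.14 and 4.23 in null pools, against 4.66, 4.63, 4.37 and 4.41 in wild-type pools. The ranges did not overlap, though by a narrow margin, and the difference of -0.26 had an adjusted p of 0.175, or 0.0399 with pool number as a block. The wild-type mean was 4.52 for Cct6b and 2.76 for Cct6a. Which transcript the Cct6b probe measures was not tested.

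In mitochondria, Hspd1 and Hspe1 form the folding chamber and its lid, and Hspa9 is the Hsp70 of the matrix. Hspd1 was at 6.89, 6.85, 6.88 and 6.93 in null pools, against 6.96, 7.08, 6.80 and 7.0 in wild-type pools. The null pools lay within the wild-type range, with a difference of -0.07 (95% interval -0.25 to 0.11). Its second probe differed by -0.31, with null pools at 4.27 to 4.54 and wild-type pools at 4.69 to 4.91 (limma adjusted p over probes 0.107). Hspe1 differed by -0.16 (95% interval -0.40 to 0.09), and Hspa9 by 0.00 (-0.21 to 0.21). Of the J proteins of mitochondria, Dnaja3, which serves Hspa9, differed by -0.09, and the import motor subunits Dnajc15 and Dnajc19 by -0.20 and -0.04, all with overlapping pools.

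Dnajc11, a protein of mitochondrial membranes linked to the shape of the cristae, was the other gene that fell. It was at 1.16, 1.03, 1.19 and 1.19 in null pools, against 1.51, 1.47, 1.50 and 1.40 in wild-type pools. No null pool reached the lowest wild-type pool, and the spread within each genotype was small. The null level was 79.9% of the wild-type level (difference -0.32 ± 0.07 SE, limma adjusted p = 0.0446), and the probe lies on chromosome 4 (mm7, 150971307 to 150971366, plus strand). A second probe was dim, above background in 2 null and 3 wild-type pools, and differed by -0.18 ± 0.36 (SE). The call was lost in all 8 fits without 1 pool (adjusted p 0.0659 to 0.140) and held in 3 of 21 alternatives, with adjusted p from 0.0325 to 1.0 and differences of -0.41 to -0.25. With the mean of the kept probes in place of the brightest one, the adjusted p was 0.539.

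**Figure D4:**
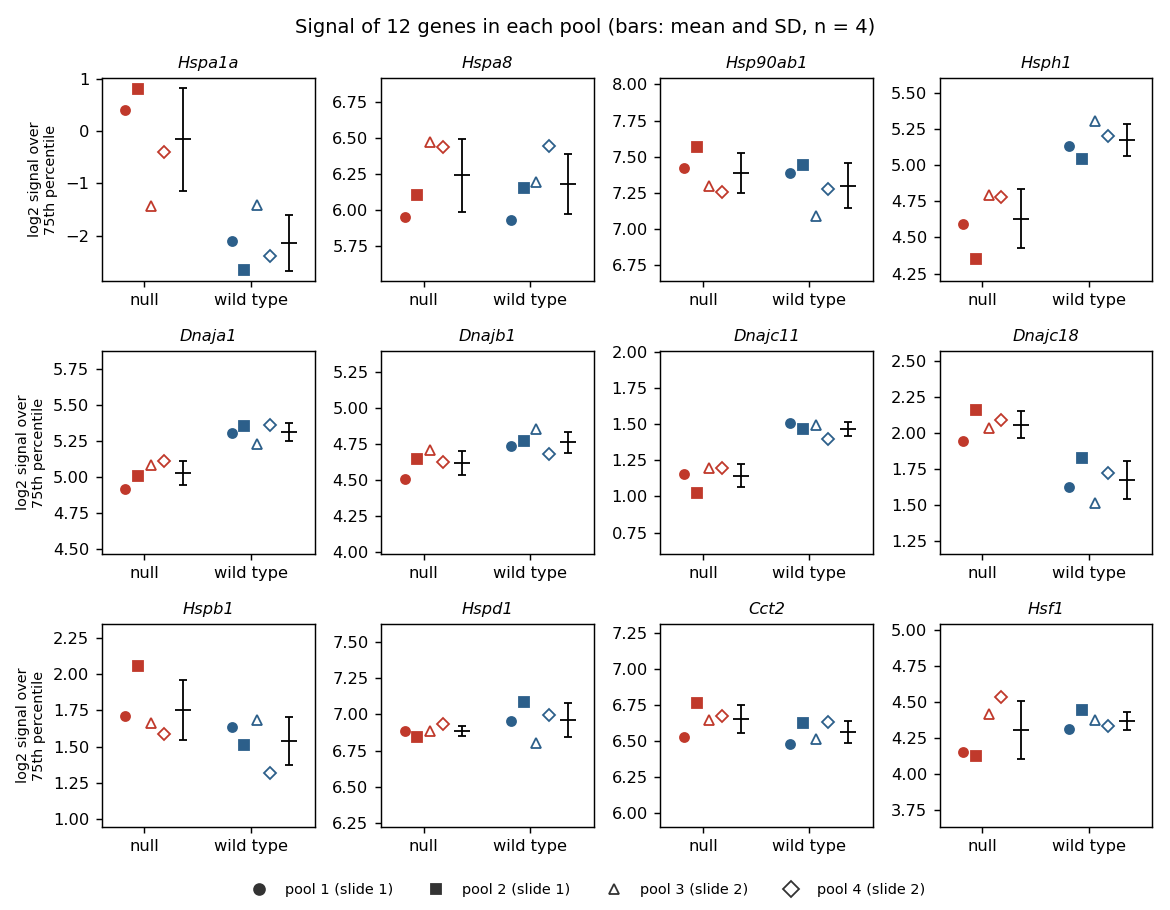
Signal of 12 heat shock genes in each pool (y axes, log2 relative to the array's 75th percentile, with a separate range per panel), null pools in red left of wild-type pools in blue, with the mean and SD of the 4 pools beside them. Hsph1, Dnaja1, Dnajc11 and Dnajc18 show no overlap between genotypes, and Hspa8 and Hsp90ab1 separate by slide in both genotypes.

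J proteins bring clients to Hsp70 and speed up its ATP hydrolysis. Class A kept the domains of bacterial DnaJ, class B lacks the zinc finger, and class C shares only the J domain. In class A all 4 null means were the lower ones, with a median of -0.19 and 0 calls. Dnaja1, the main partner of Hspa8 in this class, was at 4.92, 5.01, 5.08 and 5.11 in null pools, against 5.31, 5.35, 5.23 and 5.36 in wild-type pools. The genotypes did not overlap. The difference was -0.28 ± 0.07 (SE), with an adjusted p of 0.0737, or 0.0455 with pool number as a block. All 3 of its probes were lower in null pools, by -0.28, -0.43 and -0.37, and the last was called when every probe was tested (adjusted p = 0.0401). Over 21 alternatives the gene was called 3 times, with differences of -0.37 to -0.20 and adjusted p of 0.0455 to 1.0. Dnaja2 and Dnaja4 differed by -0.18 and -0.19.

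Of the 7 class B genes tested, 6 had the lower null mean, with a median of -0.14 and 0 calls, and all 7 intervals were within 1.5-fold. Dnajb1, the heat-inducible partner of Hspa1a, was at 4.51, 4.65, 4.71 and 4.62 in null pools, against 4.74, 4.77, 4.86 and 4.68 in wild-type pools. Null pool 3 lay above wild-type pool 4, so the ranges overlapped, and the difference was -0.14 (95% interval -0.31 to 0.03). Dnajb6, which holds back the aggregation of polyglutamine proteins, differed by -0.14. The rest ran from -0.19 for Dnajb12, of the endoplasmic reticulum membrane, to 0.07 for Dnajb4. A second Dnajb12 probe differed in the other direction, by 0.21 (limma adjusted p over probes 0.279). Dnajb7, Dnajb8 and Dnajb13 were above background on 0 of 8 arrays.

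Class C held the widest mix, with 7 higher and 11 lower null means among 18 genes tested. Dnajc18 was at 1.94, 2.16, 2.04 and 2.09 in null pools, against 1.63, 1.83, 1.52 and 1.72 in wild-type pools. Every null pool lay above every wild-type pool. The difference was 0.38 ± 0.09 (SE), 1.31-fold, with an adjusted p of 0.0562, and its second probe differed by 0.49. It was called in 5 of 21 alternatives, among them slide as a block (adjusted p = 0.0433) and pool number as a block (0.0252), and its adjusted p ran up to 0.920. Dnajc4 differed by 0.31 with overlapping pools (adjusted p = 0.239, or 0.0464 with pool number as a block).

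Dnajc7, which binds both Hsp70 and Hsp90, had null pools at 3.20 to 3.53 and wild-type pools at 3.59 to 3.69. The ranges did not overlap and the difference was -0.28 (adjusted p = 0.123). Dnajc2, the J protein of the ribosome that works with Hspa14, had null pools at 2.18 to 2.24 and wild-type pools at 2.26 to 2.52 (difference -0.17, adjusted p = 0.261). Dnajc9, which also handles histones, differed by -0.23 and the reductase Dnajc10 of the endoplasmic reticulum by -0.20, with overlapping pools. The remaining class C genes, among them Dnajc5 of synaptic vesicles and Dnajc13 of endosomes, differed by -0.13 to 0.19. Dnajc5 differed by -0.09 on its brightest probe, and by 0.27 and 0.07 on its other probes. Dnajc6, the clathrin-uncoating auxilin of neurons, was dim and differed by 0.15. Dnajc5b and Dnajc5g were above background on 0 of 8 arrays. Outside the families, Hspbap1 differed by -0.15 without overlap and Tmem208 by -0.25 with overlap (adjusted p = 0.366, or 0.0477 with pool number as a block).

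Small heat shock proteins hold unfolded proteins without using ATP, and several are made mainly in muscle. The 6 genes tested had a median difference of 0.16, with 4 higher and 2 lower null means and 0 calls. Hspb2, a muscle form, was at 1.21, 1.76, 1.43 and 1.45 in null pools, against 0.96, 1.11, 1.20 and 1.17 in wild-type pools. The ranges did not overlap, null pool 1 standing just above wild-type pool 3, and the difference was 0.35 ± 0.12 (SE, adjusted p = 0.151). Hspb3, which pairs with Hspb2 in muscle, was at -1.64, -1.39, -1.60 and -1.36 in null pools, against -1.24, -1.07, -1.07 and -1.25 in wild-type pools. It differed in the other direction, by -0.34 ± 0.09 (SE, adjusted p = 0.0903), again without overlap.

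Hspb1, found in heart and other tissues and bound to actin filaments, was at 1.71, 2.06, 1.67 and 1.59 in null pools, against 1.64, 1.51, 1.69 and 1.31 in wild-type pools. The ranges overlapped and the difference was 0.22 (95% interval -0.08 to 0.51). Hspb6, of muscle, differed by 0.30, with a 95% interval of -0.36 to 0.96, and Hspb8, which works with Bag3 in autophagy, by 0.10 (-0.36 to 0.56). Hspb9, known from testis, differed by -0.07. Beside these, 7 of 7 heart muscle markers had the higher null mean, by 0.16 to 0.35, with 0 called. With pool number as a block 1 was called, Myh7, higher (14.3%, against 13.7% of all genes called and 7.78% called higher). The ranges of 3 did not overlap, all higher (42.9%, against 16.1% of all genes in either direction and 8.08% higher). The summed signal of the heart muscle markers did not overlap between genotypes, as given above. Their part in the small heat shock protein values was not tested.

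The partners that guide Hsp70 and Hsp90 were read from a list of 36 cytosolic and 18 mitochondrial genes, all measured. Of the cytosolic partners, 0 rose and 1 fell, with a median of -0.09, 10 higher and 26 lower null means, 5 at an unadjusted p under 0.05 and 6 without overlap, all lower. That is 2.78% called, against 4.2% of all genes tested. The share without overlap was 16.7%, all lower, against 16.1% of all genes in either direction and 8.06% lower. Of all genes, 20.7% had an unadjusted p under 0.05. The one that fell was Chordc1, which binds Hsp90, at 2.14, 2.25, 2.28 and 2.34 in null pools, against 2.63, 2.69, 2.71 and 2.74 in wild-type pools. The gap between the genotypes exceeded the range within either. Its null level was 73.5% of the wild-type level (difference -0.44 ± 0.07 SE, limma adjusted p = 0.0200). It was called in 9 of 21 alternatives, and without any 1 of the wild-type pools or without null pool 3 its adjusted p was 0.0630 to 0.0771. Ahsa1, the activator of the Hsp90 ATPase, differed by -0.30 (adjusted p = 0.0525), Stip1, which bridges Hsp70 and Hsp90, by -0.24 (0.109), and Unc45a, a myosin chaperone, by -0.34 (0.126), all without overlap. With pool number as a block these 3 were called as well (adjusted p = 0.0394, 0.0352 and 0.0378 in the same order), which makes 4 falls among the cytosolic partners in that fit, or 11.1%, against 13.7% of all genes called and 5.92% called lower. Bag3 and Cryab, both inducible by heat, differed by 0.04 and -0.03.

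Of the mitochondrial partners, 1 rose, 0 fell and the median was -0.03. That is 5.56% called, against 4.2% of all genes tested. Hscb, the J-type chaperone of iron-sulphur cluster assembly, was at 1.74, 2.19, 1.93 and 2.04 in null pools, against 1.37, 1.55, 1.52 and 1.48 in wild-type pools. All null pools were above all wild-type pools. The difference was 0.50 ± 0.11 (SE), 1.41-fold (limma adjusted p = 0.0431), and it was called in 7 of 21 alternatives. Without any 1 of the wild-type pools, or without null pool 2, 3 or 4, its adjusted p was 0.0669 to 0.127. The mitochondrial Hsp90 Trap1 differed by 0.17 and the protease Lonp1 by 0.14. Among 10 tested genes whose updated symbols fit the name rule but whose names in the files do not, 1 rose, Hspb11, a protein of cilium transport (difference 0.62, limma adjusted p = 0.0431), and 0 fell (1 with pool number as a block). That is 10.0% called, against 4.2% of all genes tested.

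Spread between pools followed the slides for some genes. Values of slide 1 and slide 2 did not overlap, whatever the genotype, for 10 of the 63 heat shock genes (15.9%), against 17.5% of all genes tested. They included Hspa8, Cct8 and Hspb9, higher on slide 2, and Hsp90ab1, Tcp1 and Dnaja3, higher on slide 1. The median standard deviation within genotypes was 0.13 for the heat shock genes and 0.18 for all genes tested. Of the 35 heat shock genes with several kept probes, 22 agreed in sign on every probe. When each of the 114 kept probes was tested on its own, 0 were called higher and 2 lower, those of Hsph1 and the Dnaja1 probe above, among 884 of 25555 probes called in all.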

How the data were processed

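Per the file headers, each deposited array file holds 45018 spots of a one-colour Agilent design, read by Feature Extraction 9.5.3.1, with probe coordinates on mm7. The deposited processed intensity is Cy3 brightness after background subtraction and detrending, unscaled between arrays. A deposited table gives log2 values of 27108 probes, made by steps not stated in the labels or headers. Its columns correlated with the processed signals on the log2 scale at 0.988 to 0.990.

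Controls (1639 spots) and 87 to 175 flagged spots per array were left out, and 0 to 2 per array were saturated. Spots of a probe were averaged as log2 processed signal, and each array's 75th percentile was subtracted. Of all probes, 25555 were well above background on 4 or more of the 8 arrays and were kept. The brightest stood for its gene, with 2 or more values per genotype, which gave 17099 genes. Names were updated through RefSeq (GRCm38.p6). Genotypes were compared over all genes with limma 3.58.1 in R 4.3.3 (lmFit and eBayes, genotype as the only term, two-sided, Benjamini-Hochberg adjustment), with calls at an adjusted p under 0.05. The steps were tested on simulated data.

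Named are Arid3b, the called heat shock genes, the 6 with the largest and the 6 with the smallest difference, the main chaperones of each family, called partners and genes with a heat shock element. Further genes were named after their values were seen. The members, the partner lists and the cell type markers were chosen with earlier results of these data known. Deviations from the genotype means correlated, over genes, at 0.557 for the pools numbered 1, 0.635 for 2, 0.522 for 3 and 0.426 for 4, against a mean of 0.224 for other numbers on the same slide and -0.374 across slides. The numbers were therefore taken to pair the pools. Calls come from the fit without that block. Values or counts with pool number as a block stand beside each heat shock gene, partner or marker list whose calls it changes. Numbers are nested in slides. Alternatives were normexp background correction (offset 50), median, quantile or no scaling, other filters, the mean of the kept probes, slide or pool number as a block, each slide alone, a Y-linked covariate, the deposited table, leaving out each pool and, chosen after the data were seen, each Hspa1a probe.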

Additional observations from a re-analysis of the deposited data

Results flagged for a closer look

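In 6 of 128 groups of 4 pools, 1 pool stood apart from the other 3 (Dixon's test at the 95% level), and chance gives about 1 in 20 groups. Dnajb3 was high in null pool 2 at 0.47, against -0.08 to -0.06 in the other null pools. Dnajb4 was high in null pool 1 at 0.43, against 0.27 to 0.29 in the others. Hspb8 was high in null pool 2 at -0.0573, against -0.82 to -0.74. Arid3b was high in null pool 4 at 2.48, against 1.83 to 1.89 in the other null pools. Dnajc13 was high in wild-type pool 1 at 0.66, against 0.57 to 0.58 in the other wild-type pools, and Dnajc14 was low in wild-type pool 3 at -0.0194, against 0.24 to 0.28. Of the 6 values, 4 are of null pools and 2 of wild-type pools. The values are log2 signals relative to the array's 75th percentile.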

How the results depend on the processing

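Of the 63 heat shock genes, 2 were called by limma, 0 higher and 2 lower. With normexp background correction, no scaling between arrays, no filter on dim probes, slide 1 alone, slide 2 alone or the Y-linked level as a covariate, 0 were called, with 5, 16, 13, 6, 9 and 11 at an unadjusted p under 0.05. In the same order, 747, 2640, 6993, 1881, 2861 and 3530 of all genes were under it, out of 17043, 17099, 27670, 17085, 17016 and 17099. Median scaling called 1, lower. Quantile normalization called 1, higher, and 0 lower, as did the deposited value table. Probes above background on all arrays gave 4 calls, 2 of them higher. Slide as a block gave 6, of them 2 higher and 4 lower. The replicate block gave 8, with 3 higher and 5 lower. Without 1 pool the count was 0 to 1, with 0 to 1 higher and 0 to 1 lower. The median difference of -0.07 became -0.16 with median scaling and -0.14 with no scaling, and -0.10 to -0.05 without 1 pool. Over all genes tested the median difference also moved. It was -0.01, and became -0.10 with median scaling, -0.08 with no scaling and -0.02 to 0.01 without 1 pool.

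Over all genes, 718 were called. The count was 708 with quantile normalization, 837 (5.36%) with probes above background on all arrays, 204 with median scaling, 157 with no scaling, 164 with no filter, 304 with the covariate, 462 with the deposited table, 1370 with slide as a block and 2343 with the replicate block. It was 93 to 628 without 1 pool. It was 0 with normexp (747 at an unadjusted p under 0.05) and on slide 1 (1881) or slide 2 (2861) alone, where each genotype has 2 pools. The cause of these shifts was not tested, apart from fewer pools per fit. Of 759 values of 36 named genes under alternatives, 0 changed sign while called, 63 lost a call and 16 gained one. The intervals of Hspa1l, Hspb6 and Hspb9 are wide, and these genes differed between slides by 0.90, -0.74 and 0.87 (slide 2 minus slide 1). The number of pools and the shared slide positions limit every comparison.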
